A study of Mus musculus with 9 samples.

Results

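Kinesin and tubulin genes, taken as the protein-coding genes of GENCODE M21 whose symbols name a kinesin (Kif followed by a number) or an alpha, beta, gamma, delta or epsilon tubulin, were examined for non-methylated DNA in C127 cells, a mouse mammary epithelial cell line. The symbol rule found 57 genes of 21938 protein-coding genes on chromosomes 1 to 19, X and Y, of which 38 encode kinesins and 19 encode tubulins. The series held 9 samples of this line, grown in serum-containing medium with no treatment or genotype named in the labels. BioCAP gave 1 library and 1 input, ATAC gave 3 libraries and 1 input, and RNA labeled with 4-thiouridine gave 3 libraries. Only the 13491 non-methylated islands (NMIs) called from the BioCAP library, in which DNA without CpG methylation is captured on a CXXC domain, were used here, and each gene was scored for an NMI at any transcription start site (TSS). With 1 library and no score for any island there was no replicate error, and the read depth was unknown.

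Microtubules are built from alpha and beta tubulin dimers, are nucleated by gamma tubulin and carry kinesins, motor proteins that use ATP to move cargo or to build the mitotic spindle. Dividing cells need spindle and cytokinesis kinesins, whereas neurons use additional kinesins and tubulins for axonal and dendritic transport, and male germ cells and ciliated cells use further isotypes in flagella and axonemes. CpG-rich promoters that stay free of DNA methylation are a common feature of vertebrate genes, including many genes that are silent in a given cell. The presence of an NMI is therefore not a measure of transcription. Of 10 epithelial marker genes (Krt5, Krt8, Krt14, Krt18, Epcam, Cdh1, Cldn3, Cldn4, Cldn7 and Esrp1), 0 had an NMI at a TSS, against 47.5% of all protein-coding genes. A CpG island was predicted from sequence at 6 of the 10, and 0 of these 6 had an NMI, against 77.6% of all genes with a predicted island. Transcription of the markers was not analyzed here.

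To show what lay directly upstream of the start sites, 200 bases of RefSeq promoters (GRCm38.p6, 5′ to 3′, ending at the base before the RefSeq start) are printed for 8 genes, with CpG sites in capitals. Kif11 (chr19:37376182-37376381, plus strand) and Kif23 (chr9:61946800-61946999, minus strand) stand for cell division, Tubb5 (chr17:35838302-35838501, minus strand) for broadly used tubulins, and Tubb2a (chr13:34078009-34078208, minus strand) for neuronal genes with an NMI. Tubb3 (chr8:123411353-123411552, plus strand) and Kif5c (chr2:49619086-49619285, plus strand) are neuronal genes without an NMI. The RefSeq start of Tubb3 lay 129 bp downstream of a GENCODE TSS (chr8:123411424). Most of the printed Tubb3 stretch is therefore transcribed sequence in GENCODE, not upstream sequence. Tuba3a (chr6:125286082-125286281, minus strand) and Kif2b (chr11:91577556-91577755, minus strand) are testis genes without an NMI. The genes were picked after their NMI states were known.

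Kif11: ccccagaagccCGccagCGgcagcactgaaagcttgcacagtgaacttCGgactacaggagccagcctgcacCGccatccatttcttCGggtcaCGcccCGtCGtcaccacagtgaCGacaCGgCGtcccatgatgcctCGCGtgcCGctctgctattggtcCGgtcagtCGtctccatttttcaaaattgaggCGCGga
Kif23: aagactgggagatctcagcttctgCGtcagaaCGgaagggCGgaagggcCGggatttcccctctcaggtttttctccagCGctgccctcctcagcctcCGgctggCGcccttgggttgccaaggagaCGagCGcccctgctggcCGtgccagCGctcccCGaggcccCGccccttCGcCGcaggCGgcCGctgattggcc
Tubb5: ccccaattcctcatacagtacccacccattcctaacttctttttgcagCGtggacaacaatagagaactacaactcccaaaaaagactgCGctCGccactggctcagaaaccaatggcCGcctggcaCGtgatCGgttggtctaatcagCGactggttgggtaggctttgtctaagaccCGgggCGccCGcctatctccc
Tubb2a: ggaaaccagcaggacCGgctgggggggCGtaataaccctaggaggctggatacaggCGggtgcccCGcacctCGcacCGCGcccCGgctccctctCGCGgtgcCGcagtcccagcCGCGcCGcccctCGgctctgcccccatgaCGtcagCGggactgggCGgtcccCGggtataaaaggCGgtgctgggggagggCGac
Tubb3: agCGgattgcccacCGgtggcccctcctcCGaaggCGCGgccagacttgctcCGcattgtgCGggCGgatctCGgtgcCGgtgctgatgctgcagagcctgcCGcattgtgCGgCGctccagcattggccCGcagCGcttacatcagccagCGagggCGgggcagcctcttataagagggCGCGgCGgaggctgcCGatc
Kif5c: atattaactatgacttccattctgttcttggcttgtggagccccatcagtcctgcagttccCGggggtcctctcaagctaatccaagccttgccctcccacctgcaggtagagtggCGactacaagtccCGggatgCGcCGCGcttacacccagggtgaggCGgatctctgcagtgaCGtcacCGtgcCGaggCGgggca
Tuba3a: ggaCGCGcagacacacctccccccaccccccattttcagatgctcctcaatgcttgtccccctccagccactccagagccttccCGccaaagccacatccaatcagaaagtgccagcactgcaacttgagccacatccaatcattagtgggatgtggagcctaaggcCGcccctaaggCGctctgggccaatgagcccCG
Kif2b: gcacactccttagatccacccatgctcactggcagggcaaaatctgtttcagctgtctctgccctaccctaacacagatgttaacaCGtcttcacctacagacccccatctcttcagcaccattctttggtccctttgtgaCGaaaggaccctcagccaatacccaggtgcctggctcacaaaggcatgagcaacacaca

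These sequences held 18 CpG sites at Kif11, 17 at Kif23, 10 at Tubb5, 21 at Tubb2a, 21 at Tubb3, 11 at Kif5c, 6 at Tuba3a and 2 at Kif2b. Tubb3, without an NMI, thus carried as many CpG sites in this stretch as Tubb2a, with an NMI, and more than Kif11, Kif23 and Tubb5. The order against Kif11 and Kif23 was reversed within 500 bp of the most CpG-rich TSS. There Tubb3 had 5.69 CpG per 100 bp, Kif11 7.99 and Kif23 7.29, while Tubb5 had 4.80 and Tubb2a 4.90.

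Of the 57 genes, 40 had an NMI at a TSS (70.2%, exact 95% binomial interval 56.6 to 81.6%), against 47.5% of all protein-coding genes. The intervals cover counting error only, since genes are not replicates. Kinesin genes had an NMI in 28 of 38 (73.7%, interval 56.9 to 86.6%) and tubulin genes in 12 of 19 (63.2%, interval 38.4 to 83.7%). A CpG island was predicted from sequence (a window of 500 bp at a TSS with at least 55% GC and an observed/expected CpG ratio of at least 0.65) at 50 of the 57 genes (87.7%), compared with 58.0% of all protein-coding genes. Every gene with an NMI had such an island, as did 9867 of the 10425 protein-coding genes with an NMI. Thus 40 of 50 genes with an island had an NMI (80.0%, interval 66.3 to 90.0%). This share lay close to the 77.6% found for all protein-coding genes with a predicted island. The classes by use within the family were examined next.

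All 12 cell division genes had an NMI (interval 73.5 to 100%), 5 of 12 neuronal genes had an NMI (41.7%, interval 15.2 to 72.3%), and 0 of 3 testis genes had an NMI (interval 0 to 70.8%). An island was predicted at all 12 cell division genes and at all 12 neuronal genes, but at 0 of the 3 testis genes. The testis interval covered most of the scale, and the differences between classes were not tested. Under 3 of the alternative settings 1 cell division gene (Kif4, Kif14 or Kif2c) was lost, and the interval at 11 of 12 (61.5 to 99.8%) overlapped that of the neuronal class. The cell division interval also included the 77.6% of all genes with a predicted island. Genes of broad transport (10 of 10), broadly used tubulins (5 of 5) and genes of the centriole and primary cilium (4 of 4) all had an NMI. Motile cilia genes had an NMI in 2 of 4, and genes used in other tissues in 2 of 7. Put together after these counts were seen, the broadly used classes had an NMI in 31 of 31 genes, whereas the tissue-related classes had an NMI in 9 of 26. A predicted island was present at 31 of the former and at 19 of the latter. Among genes with an island the counts were thus 31 of 31 and 9 of 19, beside 77.6% of all genes with an island. The former group joined exactly the classes in which every gene had an NMI. Its full count was therefore fixed by the grouping and is no separate result. By the same grouping every gene without an NMI fell in the latter group. Its 9 of 26 and 9 of 19 are therefore no separate result either.

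**Figure D1:**
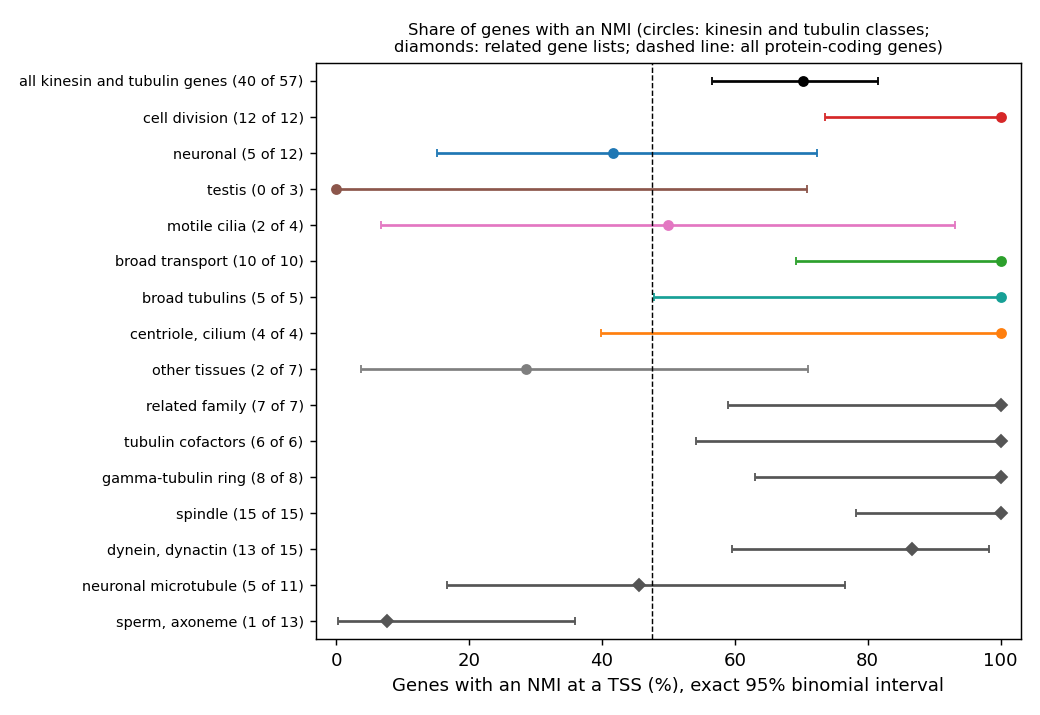
Share of genes with an NMI at a TSS (x axis, %) for the kinesin and tubulin classes (circles) and for related gene lists (diamonds), with exact 95% binomial intervals; the dashed line marks all protein-coding genes at 47.5%. Cell division genes lie at 12 of 12, neuronal genes at 5 of 12 and testis genes at 0 of 3.

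Among cell division genes, NMI width ran from 511 to 1993 bp with a median of 1046 bp. The widest lay at Tubg1, which encodes the gamma tubulin that nucleates microtubules at centrosomes (1993 bp, chr11:101118710-101120702). It was followed by Kif11, the motor that keeps spindle poles apart (1538 bp, chr19:37375627-37377164), and Kif20a, a cytokinesis kinesin (1401 bp, chr18:34623944-34625344). They held 5.72, 6.24 and 5.42 CpG per 100 bp, respectively. Next came Kif20b (1379 bp), Kif15 (1283 bp, chr9:122950300-122951582, 5.85 CpG per 100 bp), which assists Kif11 on the spindle, and Kif23 (1139 bp), the motor subunit of centralspindlin. Kif4, a chromokinesin, had an NMI of 954 bp (chrX:100625645-100626598, 6.39 CpG per 100 bp), and Kif22, which pushes chromosome arms, of 946 bp. Kif18a, which aligns chromosomes, had an NMI of 928 bp (chr2:109280295-109281222, 5.71 CpG per 100 bp), Kif18b of 898 bp and the cytokinesis kinesin Kif14 of 864 bp. Kif2c, a microtubule depolymerase of centromeres, had the narrowest (511 bp, chr4:117182299-117182809). At Kif4 the TSS lay 92 bp from the upstream edge of the island. At Kif14 the NMI held 1 of 5 TSSs, that of a transcript not annotated as protein-coding, and the RefSeq start lay 1030 bp beyond the island. The RefSeq start of Kif2c lay 3527 bp from its island, so that at both genes the call rests on another annotated TSS. Composition of these NMIs was narrow in range, at 4.89 to 7.46 CpG per 100 bp and an observed/expected ratio of 0.705 to 0.867.

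Neuronal members were divided between genes with and genes without an NMI, although an island was predicted at each. The beta tubulins Tubb2a (1234 bp, chr13:34077107-34078340) and Tubb2b (1172 bp, chr13:34129685-34130856) and the alpha tubulin Tuba1a (1022 bp, chr15:98952738-98953759) had an NMI. So did the kinesins Kif21b (1013 bp, chr1:136131071-136132083) and Kif3c (743 bp, chr12:3364986-3365728). CpG per 100 bp was 4.38 at Tubb2a, 5.20 at Tubb2b, 5.97 at Tuba1a, 6.73 at Kif3c and 8.09 at Kif21b. The 5 islands all reached further downstream of the TSS than upstream, and at Tuba1a only 56 bp lay upstream.

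No NMI lay at Tubb3, the beta tubulin widely used as a neuronal marker, at Tubb4a, a beta tubulin of brain, at Tubg2, the second gamma tubulin gene, at Kif1a, a motor for synaptic vesicle precursors, or at the kinesin heavy chain genes Kif5a and Kif5c. Kif17, a dendritic and ciliary motor, was also without. Within 500 bp of the most CpG-rich TSS, Kif17 (TSS at chr4:138262472) had 8.99 CpG per 100 bp and a ratio of 0.771. Kif5c (chr2:49619298) had 6.19 CpG per 100 bp and 0.716, and Kif5a (chr10:127263095) had 5.59 and 0.646. For Kif1a (chr1:93101846) the values were 5.79 and 0.605, and for Tubb3 (chr8:123411424) 5.69 and 0.601. Tubg2 (chr11:101155907) had 3.90 CpG per 100 bp and a ratio of 0.522, and Tubb4a (chr17:57087782) had 3.40 and 0.426. Kif17 therefore lay above the median density of genes with an NMI (6.39 CpG per 100 bp), whereas Tubg2 and Tubb4a lay below the lowest (4.00, at Tuba1a). The nearest NMI was 165878 bp from a TSS at Kif5c, 89506 bp at Kif1a, 32726 bp at Kif17, 30720 bp at Tubb3, 12501 bp at Tubg2 and 8421 bp at Tubb4a. At Kif5a it was 2713 bp away, at the promoter of Dctn2, which encodes a dynactin subunit. For Kif1a and Kif17 the distances start from annotated TSSs other than the CpG-rich ones given above. From a RefSeq start the nearest NMI was 108679 bp away at Kif1a (chr1:93101874) and 42133 bp at Kif17 (chr4:138262251).

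The 3 testis members had neither a predicted island nor an NMI. They were Kif2b, a depolymerizing kinesin, and Tuba3a and Tuba3b, which encode the testis alpha tubulin. Density at the TSS was 4.70 CpG per 100 bp at Tuba3a, 3.50 at Tuba3b and 2.70 at Kif2b. The nearest NMI lay 27247 bp from Tuba3a, 130482 bp from Tuba3b and 938657 bp from Kif2b. With looser island criteria (200 bp, 50% GC, ratio 0.6), Tuba3a and Tuba3b had an island and Kif2b did not.

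Motile cilia genes were again divided. Kif9 (992 bp, chr9:110476277-110477268) and Kif6 (924 bp, chr17:49614672-49615595) had an NMI at the TSS, at 5.44 and 5.41 CpG per 100 bp. Kif19a, which limits the length of cilia, and Kif27 did not. Kif27 (TSS at chr13:58359122) had 9.29 CpG per 100 bp and a ratio of 0.912, the highest of the genes without an NMI. Kif19a (chr11:114765388) had 5.19 and 0.560. The nearest NMI lay 25075 bp from another annotated TSS of Kif27 and 1139 bp from another annotated TSS of Kif19a. These distances do not apply to the CpG-rich TSSs given above. Both islands lay inside the genes (chr13:58287848-58288186 and chr11:114789084-114789465). The RefSeq start of Kif27 (chr13:58354947) lay 45815 bp from the NMI nearest to it.

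**Figure D2:**
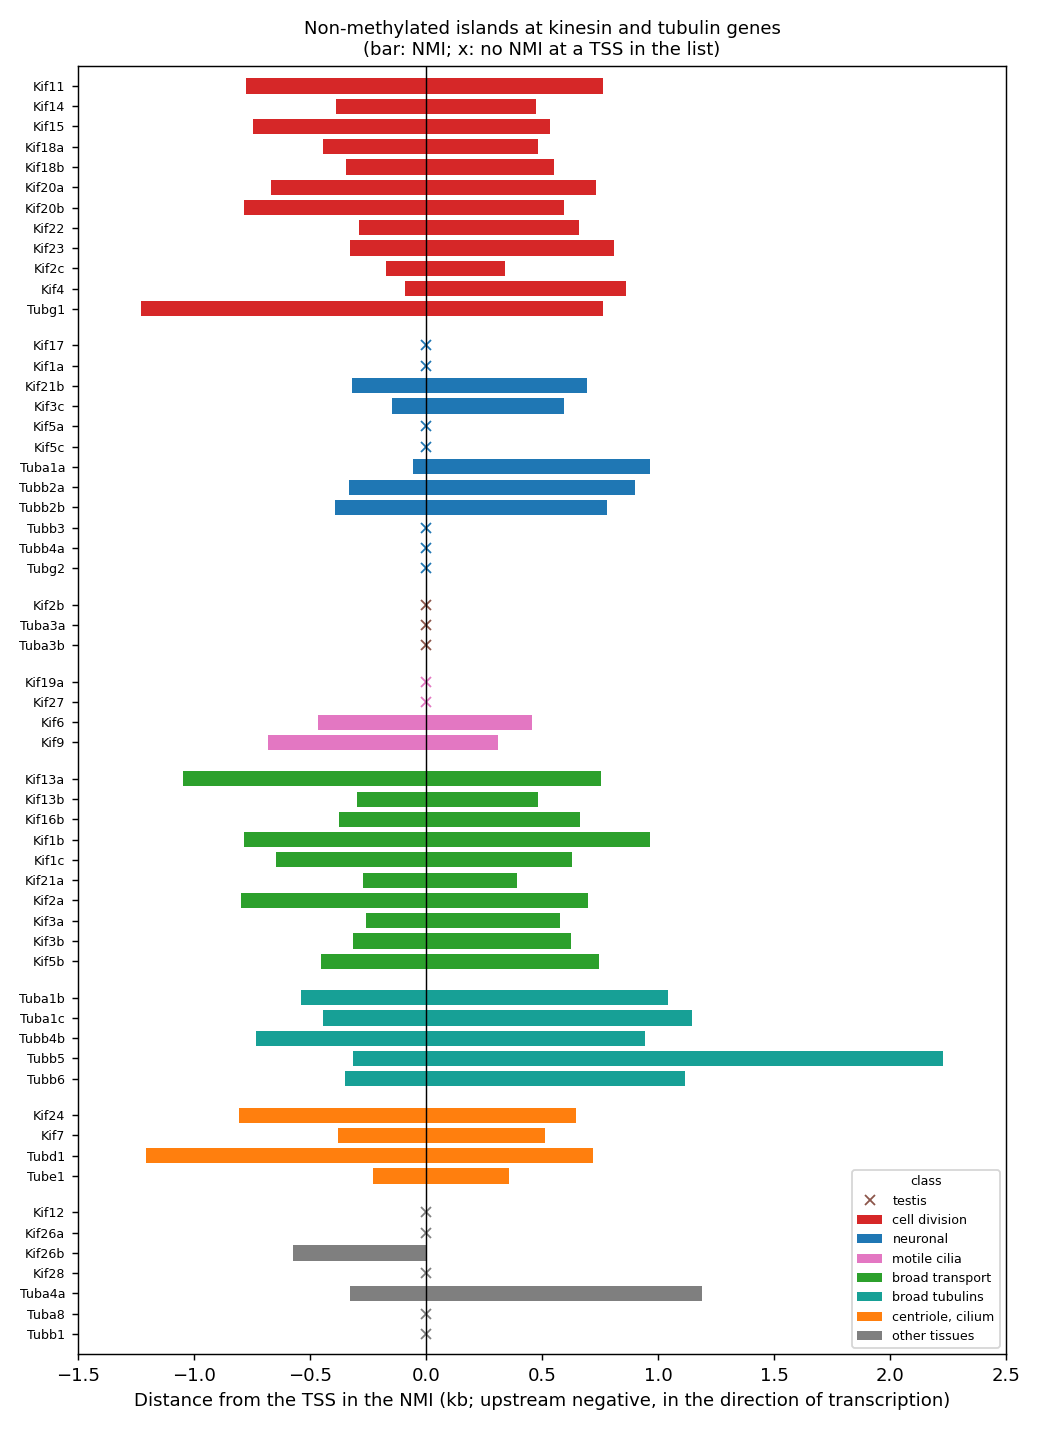
Extent of the widest NMI at each of the 57 genes, in kb from its outermost TSS in the NMI (x axis; upstream negative), colored by class; a cross marks a gene with no NMI at a TSS. All cell division genes carry a bar, 7 of 12 neuronal genes and all 3 testis genes carry a cross, and the bar of Tubb5 reaches furthest downstream (2227 bp).

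Broadly used motors and tubulins carried NMIs throughout. In the transport class the widest NMIs were at Kif13a, an endosomal motor (1802 bp, chr13:46929112-46930913), and Kif1b, which carries mitochondria and vesicles (1750 bp, chr4:149306728-149308477). Next was the NMI of Kif2a (1498 bp, chr13:107021426-107022923), which was counted in this class although it encodes a depolymerase. Narrower were those of Kif1c (1276 bp, chr11:70699903-70701178, 9.17 CpG per 100 bp), Kif5b, the ubiquitous kinesin heavy chain (1200 bp, chr18:6240776-6241975, 7.50 CpG per 100 bp), Kif16b (1038 bp), Kif3b (938 bp), Kif3a (834 bp, chr11:53567122-53567955, 8.39 CpG per 100 bp), Kif13b (783 bp) and Kif21a (664 bp). Kif3a and Kif3b encode the motor subunits that build cilia. Transport genes also had the highest class median of CpG density over their NMIs, 8.78 per 100 bp, with 9.27 at Kif13a, 9.31 at Kif1b and 12.2 at Kif2a, against 5.83 in the cell division class and 6.86 over all protein-coding genes with an NMI. For the kinesin heavy chains, Kif5b thus had an NMI while Kif5a and Kif5c had none.

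The 5 broadly used tubulin genes had the highest class median of NMI width, 1592 bp. The NMI of Tubb5 was the widest of all 57 genes (2544 bp, chr17:35836079-35838622, 4.28 CpG per 100 bp) and ended in intron 3, after 2227 bp of the transcribed region. Tubb4b (1676 bp, chr2:25223760-25225435), Tuba1c (1592 bp, chr15:99029446-99031037), Tuba1b (1580 bp, chr15:98933524-98935103) and Tubb6 (1467 bp) followed, at 6.50, 5.21, 7.03 and 7.63 CpG per 100 bp. At all 5 the island held the start codon and extended further downstream than upstream. Over all members the median NMI width was 1156 bp, beside 1210 bp over the 10425 protein-coding genes with an NMI.

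In the centriole and cilium class, NMIs lay at Tubd1 (1926 bp, chr11:86543785-86545710) and Tube1 (588 bp, chr10:39133748-39134335), the delta and epsilon tubulin genes needed for centriole triplets. They also lay at Kif24 (1453 bp, chr4:41464242-41465694), a centriolar kinesin, and Kif7 (894 bp, chr7:79715206-79716099), a regulator of Hedgehog signaling in the cilium. Density was 5.45 CpG per 100 bp at Tubd1, 6.13 at Kif24, 6.15 at Kif7 and 6.63 at Tube1. Of the genes used in other tissues, Tuba4a (1519 bp, chr1:75218104-75219622) and Kif26b (576 bp, chr1:178528554-178529129) had an NMI, at 5.46 and 11.1 CpG per 100 bp. The TSS of Kif26b lay 4 bp inside the island's edge, with the other 571 bp upstream. Its relative Kif26a (TSS at chr12:112146208) had 7.89 CpG per 100 bp and a ratio of 0.721, but its TSS lay 677 bp from the nearest NMI. Kif12, Kif28, Tuba8 and Tubb1, which encodes the beta tubulin of platelets, had no predicted island and no NMI, and ranged from 1.30 CpG per 100 bp at Tubb1 to 3.80 at Tuba8. Their nearest NMI lay 10275 bp away at Kif28, 11424 bp at Tubb1, 26155 bp at Tuba8 and 43090 bp at Kif12.

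The 10 genes with a predicted island but no NMI overlapped in composition with the 40 genes with both. Density ran from 3.40 to 9.29 CpG per 100 bp (median 5.74) in the former and from 4.00 to 15.5 (median 6.39) in the latter. Of the 10 genes, 8 lay at or above the lowest density of genes with an NMI, and 3 (Kif27, Kif17 and Kif26a) lay above their median. The observed/expected ratio ran from 0.426 to 0.912 (median 0.625) without an NMI and from 0.566 to 1.08 (median 0.775) with it. In the 7 genes without an island the density was 1.30 to 4.70.

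**Figure D3:**
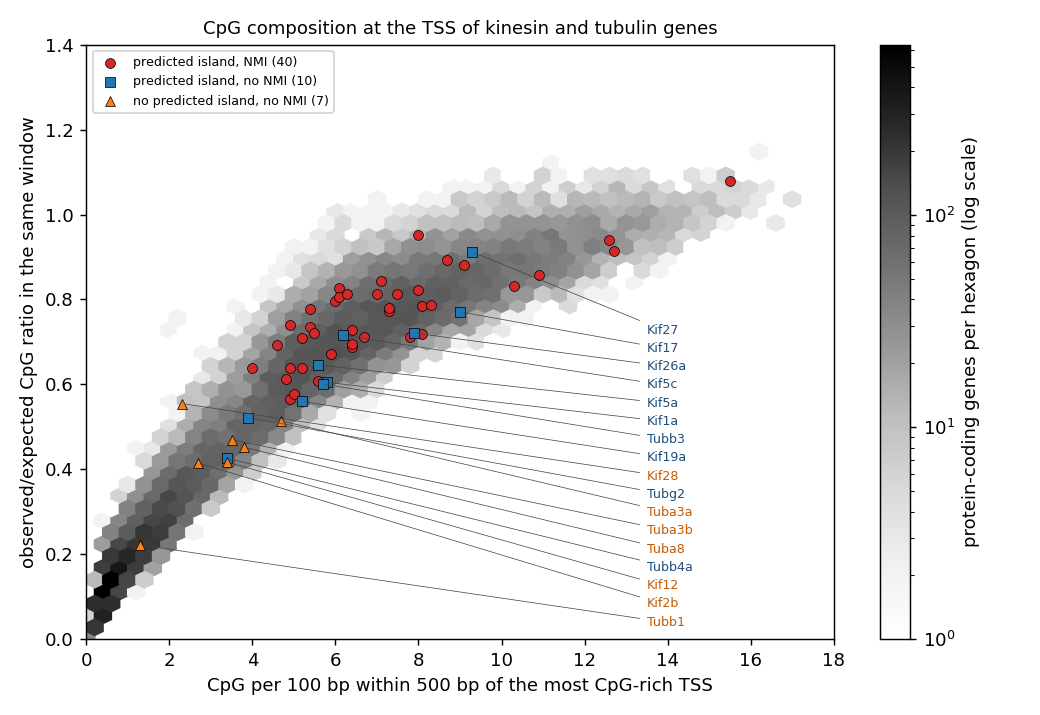
CpG per 100 bp (x axis) and observed/expected CpG ratio (y axis) within 500 bp of the most CpG-rich TSS, for the 57 genes (symbols by predicted island and NMI) over all protein-coding genes (gray hexagons, number on a log scale). Genes with an island but no NMI, such as Kif27 at 9.29 and Kif17 at 8.99 CpG per 100 bp, lie among the genes with an NMI.

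Neighboring tubulin genes were then compared. The gamma tubulin genes lie 35969 bp apart (between outermost TSSs) on the same strand of chromosome 11, and Tubg1 had an NMI of 1993 bp while Tubg2 had none. The NMI of Tubg1 also held a TSS of Retreg3 on the opposite strand. In contrast, Tubb2a and Tubb2b, 52459 bp apart on chromosome 13, both had NMIs, of 1234 and 1172 bp. Tuba1a and Tuba1b, 19138 bp apart on chromosome 15, had NMIs of 1022 and 1580 bp, and Tuba1c, 76188 bp from Tuba1a, had an NMI of 1592 bp. Reads without a unique position were discarded by the authors, which can remove signal at near-identical copies. Within 500 bp of the TSS, no run of 50 bases was shared between any of the 57 genes, and copies elsewhere in the genome were not searched.

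**Figure D4:**
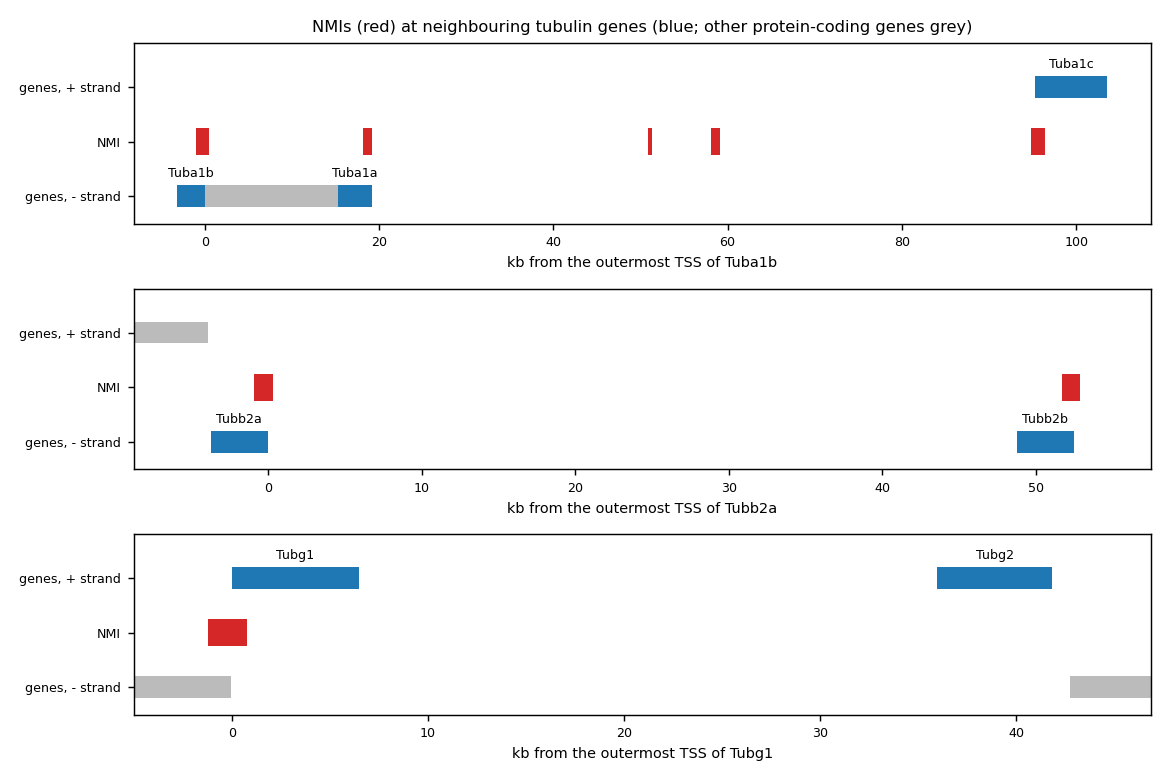
Maps of 3 tubulin loci drawn to scale, with NMIs in red, tubulin genes in blue and other protein-coding genes in gray; the x axis gives kb from the outermost TSS of Tuba1b, Tubb2a or Tubg1. An NMI covers the TSS of each tubulin gene except Tubg2, 35969 bp from Tubg1.

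Position within the islands was similar to that of other genes. Of the 40 NMIs, 28 (70.0%) reached further downstream than upstream of the TSS, beside 78.6% over all protein-coding genes with an NMI. The median reach was 389 bp upstream and 679 bp downstream, against 389 and 748 bp. The start codon lay in the NMI at 26 of 39 genes with an annotated start codon (66.7%, against 63.7%), and the downstream edge fell in intron 1 at 32 of 40 genes (80.0%, against 78.5%). None of the 57 genes had NMIs at separate TSSs. A total of 113 of their 254 TSSs lay in an NMI, and in 11 genes all TSSs did. No share over all protein-coding genes was available beside these counts, so they describe the 57 genes only. At Kif15 the NMI held 7 of 17 TSSs, and at Kif1b it held 5 of 11.

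A TSS of another protein-coding gene lay in the NMI at 11 of the 40 genes (27.5%, against 23.3% over all protein-coding genes with an NMI), in 10 of them on the opposite strand. In the cell division class these were Kif18a with Mettl15 (TSSs 10 bp apart), Kif20a with Brd8 (12 bp), Tubg1 with Retreg3 (45 bp), Kif15 with 1110059G10Rik (46 bp) and Kif4 with Pdzd11 (198 bp). In the centriole and cilium class they were Tube1 with Fam229b (62 bp), Tubd1 with Rps6kb1 (186 bp) and Kif24 with Nudt2 (264 bp). Kif9 shared its NMI with Klhl18 (264 bp) and Kif1c with Inca1 (393 bp). Tuba1a shared its NMI with Gm49450 (152 bp), which is annotated on the same strand. At these genes the NMI cannot be assigned to either promoter. Non-coding genes shared the NMI of Kif3a, Tuba1b, Kif21b, Kif5b and Kif2a, at 66 to 427 bp.

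Other microtubule genes, listed by function, were counted in the same way, beside 47.5% of all genes and 77.6% of genes with a predicted island. An NMI lay at all 15 spindle genes (among them Aurka, Aurkb, Plk1, Tpx2 and Ndc80), all 8 genes of the gamma-tubulin ring complex and all 6 tubulin cofactor genes. All 7 related genes that the symbol rule left out (Cenpe, Kifc1, Kifc2, Kifc3, Kifc5b, Kif1bp and Tubal3) had an NMI as well. Each gene of these lists also had a predicted island. Dynein and dynactin genes had an NMI in 13 of 15, with Dync1i1 and Dynlt3 without, and a predicted island in 14 of 15. Neuronal microtubule genes had an NMI in 5 of 11 (Dclk1, Map1a, Map1b, Map6 and Tppp), and Dcx, Map2, Mapt, Stmn2, Stmn3 and Stmn4 were without. Of these 11 genes, 7 had a predicted island. Genes of sperm and the axoneme had an NMI in 1 of 13, Spag6, and 4 of the 13 had a predicted island.

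Promoters were also searched for motifs, using RefSeq promoters of 300 bp (250 bp before the start and 50 bp after it), on both strands, which were available for 47 of the 57 genes. The cell cycle genes homology region (CHR), written as TTTGAA or TTCGAA, occurred in a promoter of 9 of 10 cell division genes (Kif11, Kif14, Kif15, Kif18b, Kif20b, Kif22, Kif23, Kif2c and Kif4, but not Kif18a). It occurred in 21.7% of all 27025 genes with a RefSeq promoter. This set, used as the background for all motifs, is not limited to the 21938 protein-coding genes. In the remaining classes it was found in 1 of 9 neuronal genes (Kif1a), 1 of 3 testis genes (Tuba3b), 1 of 3 motile cilia genes (Kif27), 0 of 8 transport genes, 1 of 4 broadly used tubulin genes (Tubb4b), 1 of 4 centriole and cilium genes (Kif24) and 1 of 6 genes used in other tissues (Kif26b). The motif began within 50 bp of a RefSeq start in 7 of 10 cell division genes, in Kif1a, Kif24 and Kif26b, and in 6.12% of all genes. CCAAT occurred in 6 of 10 cell division genes, 2 of 9 neuronal genes and 3 of 3 testis genes, beside 41.1% of all genes. It was also found in 3 of 4 broadly used tubulin genes, 2 of 3 motile cilia genes and 2 of 4 centriole and cilium genes. For transport genes the count was 3 of 8, and for genes used in other tissues 2 of 6. The E2F motif, written as TTTCCCGC, TTTGGCGC, TTTCGCGC or TTTGCCGC, occurred in 2 of 10 cell division genes (Kif15 and Kif18a) and in 2.60% of all genes. The CHR of Kif2c lay in a promoter whose start was 3527 bp from the NMI, and that of Kif14 in the promoter 1030 bp from it. Kif1a had its CHR only in a promoter with 1 CpG (start at chr1:93082480), not in that with 24 CpG (chr1:93101874). The Kif27 promoter with the CHR (start at chr13:58354947) held 2 CpG and was not that of its CpG-rich TSS (chr13:58359122). None of the motif letters contains another motif. A match is a description of the sequence and was not tested as a binding site.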

How the data were processed

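BioCAP DNA from C127 cells was aligned by the authors to mm10 with Bowtie2, reads without a unique position and duplicates (SAMtools) were removed, and NMIs were called with MACS (MACS2 in the submitters' processing notes). Neither the versions of these tools nor the use of the input as control for this list was given in the sources used here. The deposited list gave a chromosome, a start counted from 0 and an end, with no score, so a gene without an NMI is without an NMI in this list only.

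Genes and TSSs came from GENCODE M21 (GRCm38, the coordinates of mm10) and sequence from RefSeq GRCm38.p6. A gene had an NMI when any transcript 5′ end lay in an island. Positions are counted from 1. Composition was taken within 500 bp of the most CpG-rich TSS. Functional classes were assigned by symbol from general knowledge, not from expression in C127 cells. The members, classes and lists were chosen with earlier results of these data known, and the motifs and printed promoters after NMI states were seen. All members were named, with positions for the 3 widest NMIs of each class, members with an island and no NMI, and members with shared NMIs, and distances where no NMI was present. Counts carry exact 95% binomial intervals (SciPy 1.17.1), with no test. Functions were checked on made-up intervals and sequences. RefSeq promoters were not found for Kif13b, Kif19a, Kif20a, Kif21b, Kif28, Kif5a, Kif5b, Tubb2b, Tubb6 and Tubg1.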

Additional observations from a re-analysis of the deposited data

How the results depend on the processing

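The count of 40 genes ran from 37 (outermost TSS only, without Kif13b, Kif5b and Tuba4a, or a TSS at least 100 bp inside both edges, without Kif26b, Kif4 and Tuba1a) to 41 (within 1000 bp, with Kif26a), while the share of all protein-coding genes ran from 42.5 to 49.0%. Without NMIs at or below the lower quartile of width (572.5 bp) Kif2c was lost, and with protein-coding transcripts only Kif14 was lost, so that the cell division class fell to 11 in each, as it did without Kif4. The neuronal class was 4 or 5 and the testis class 0 under every alternative. Of 61 alternatives, 59 stayed within 1.5 times the count or within the interval of the median width (946 to 1401 bp). The class of other tissues went from 2 to 1 inside both edges (Kif26b) and to 1 at the outermost TSS (Tuba4a). Looser island criteria gave 54 genes with an island in place of 50. No paired analysis was possible because only 1 library was used. Without depth or scores, islands that were weakly captured cannot be told from absent ones.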

Other observations

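An NMI that held none of the gene's own TSSs overlapped 8 of the 57 genes. No share over all protein-coding genes was available beside this count. At 7 of the 8 genes the NMI lay wholly within the gene and measured at most 656 bp. At Kif22 it was 2647 bp wide (chr7:127025264-127027910), with 182 bp inside the 3′ end of the gene. This island held a TSS of Maz, which encodes a zinc finger protein, and lay 206 bp from an annotated TSS of Kif22. Among genes without an NMI at a TSS, Kif19a had an island of 382 bp touching an exon (chr11:114789084-114789465, 1139 bp from a TSS), Kif27 of 339 bp touching an exon, and Kif28 of 479 bp in an intron, and Kif5a had a narrower island in an intron, 18533 bp from a TSS. The remaining islands lay in Kif21a (656 bp), Kif21b (385 bp) and Kif13a (283 bp), at least 8806 bp from a TSS of the gene.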
